A study of Mus musculus with 10 samples.

Results

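The most abundant transcripts of control germinal vesicle oocytes were ranked over the 4 libraries of Setdb1 f/+; Zp3-cre mice, out of 10 libraries in the series. The 34768 transcript rows of the deposited table carry 24453 gene symbols. For each symbol the row with the highest mean over these 4 libraries was kept, and the symbols were ordered by that mean. The order is made from the levels themselves, so ranks and levels are given as a description with no test, and no genotype was compared with another.

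The series addresses what oocytes need Setdb1 for, a methyltransferase that acts on lysine 9 of histone H3, and profiled total RNA of germinal vesicle oocytes from C57Bl/6J mice. Each library is a pool of 16 oocytes of 1 mouse, stripped of follicle cells and collected in M2 medium with 2.5 mM milrinone, an inhibitor of phosphodiesterase 3 that holds oocytes in meiotic arrest. The 4 mice carried 1 floxed and 1 wild-type Setdb1 allele together with Zp3-cre, a Cre recombinase driven by the promoter of an egg coat gene and active in growing oocytes. Such oocytes can lose the floxed copy, so they are the study's controls but are not wild type. Which exons are floxed and how old the mice were is not stated here.

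A mouse oocyte grows over weeks inside its follicle while its meiosis is arrested, and during growth it makes and stores messenger RNA for later use. Transcription falls silent around full growth, when the nucleus is still visible as the germinal vesicle. From then until the embryo switches on its own genome, meiosis, fertilisation and the first cleavage draw on this store. Messages made during growth include those for the coat around the egg and for growth factors that act on the follicle. Others encode a protein complex under the egg cortex, RNA-binding proteins that hold messages dormant, and chromatin factors used after fertilisation.

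Levels are RPKM, read counts divided by transcript length and library total, so that genes can be set beside each other. No read totals come with the table, and the spacing of its low values put the libraries at about 56.5e6 to 69.0e6 reads. At that depth a transcript of 2 kb with 10 reads has 0.0724 to 0.0886 RPKM, so the levels of the highest genes lie far above the counting limit. Over the 9854 symbols of at least 1 RPKM, Spearman's rho across genes was 0.983 to 0.985 among replicates 1, 2 and 4 and 0.964 to 0.968 between replicate 3 and the others. Genes are not independent replicates, so these are descriptions of the libraries. Replicate 3 stands apart from the other 3 libraries, and its values are given for many of the genes that turn on them.

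Setdb1 itself ranked 1380 with 28.6, 25.6, 25.1 and 52.5 RPKM in replicates 1 to 4. Replicate 4 was the high one, 1.84 times the next library, and the other 3 lay close together. The level is given per transcript and not per exon, so it does not show how much of the floxed copy was deleted. The Setdb1 row used is 1 of 3.

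The oocyte label was checked with 4 marker genes. Zp3, which encodes a zona pellucida glycoprotein, had a mean of 957 ± 69.1 RPKM (SD over the 4 mice, n = 4, as for every ± below) and ranked 7. Nlrp14, a maternal NLRP gene, had 665 ± 85.5 RPKM and ranked 14. Dnmt1, the maintenance DNA methyltransferase, had 509.6 ± 39.5 RPKM and ranked 22, and Nobox, an oocyte homeobox factor, had 194 ± 14.9 RPKM and ranked 108. The lowest library of any of the 4 markers was at 178 RPKM.

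RNA of other cells was low for most markers. In a pool, few such cells and little RNA per cell cannot be told apart. Of 17 markers of granulosa and cumulus cells, 3 reached 1 RPKM, namely Serpine2 with 72.5, Nr5a2 with 11.6 and Cyp19a1 with 7.19 RPKM, and the summed level of the list was 91.0 to 104 RPKM in the 4 libraries. Serpine2 ranked 483 and so was among the 500 highest symbols. The defining granulosa gene Foxl2 was at 0.00144 RPKM, and the granulosa genes Amh and Fshr were at 0.401 and 0.736 RPKM. Of 11 markers of theca and stroma only Hsd3b1 reached 1 RPKM, at 1.09, and Cyp17a1, Lhcgr, Col1a2 and Col3a1 were listed at 0. Of 14 markers of blood, immune and endothelial cells 3 reached 1 RPKM, namely Pecam1 with 17.7, C1qb with 13.5 and Tie1 with 1.10 RPKM, while the defining endothelial gene Cdh5 was listed at 0 and the leukocyte gene Ptprc was at 0.0162 RPKM. Of 5 markers of the ovarian surface epithelium 1 reached 1 RPKM, Upk3b at 1.04. Of 18 genes of unrelated tissues 1 reached 1 RPKM, the spermatid protamine Prm2 at 2.02, and the 4 Y-linked genes stood at 0.00406 RPKM or less.

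The RNA of these oocytes was spread over many genes, with a small set far above the rest. In mean level 9854 of 24453 symbols (40.3%) reached 1 RPKM, and their median was 7.56 RPKM. In each library separately the count was 9801, 9904, 9852 and 9716. Of all symbols 9106 (37.2%) reached 1 RPKM in every library, 1499 did so in 1 to 3 libraries, and 13848 (56.6%) stayed below it in all 4. Within the last group 5907 symbols (24.2% of all) were listed at 0 in all 4 libraries, which does not by itself show that they are silent.

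At the top end, 251 symbols (1.03%) were at 100 RPKM or more in each library, and only 5 had a mean of 1000 RPKM or more. The 100 highest symbols, 0.409% of all, held 21.9%, 22.4%, 23.1% and 22.6% of the summed RPKM in replicates 1 to 4, a mean of 22.5% ± 0.510 (SD, n = 4). The 10 highest held 7.16% to 7.80% and the 500 highest, 2.04% of all symbols, held 43.0% to 44.3%. Counted the other way, 129 symbols were enough for 25% of the summed mean RPKM, 716 for 50%, 2299 for 75% and 4656 for 90%.

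**Figure D1:**
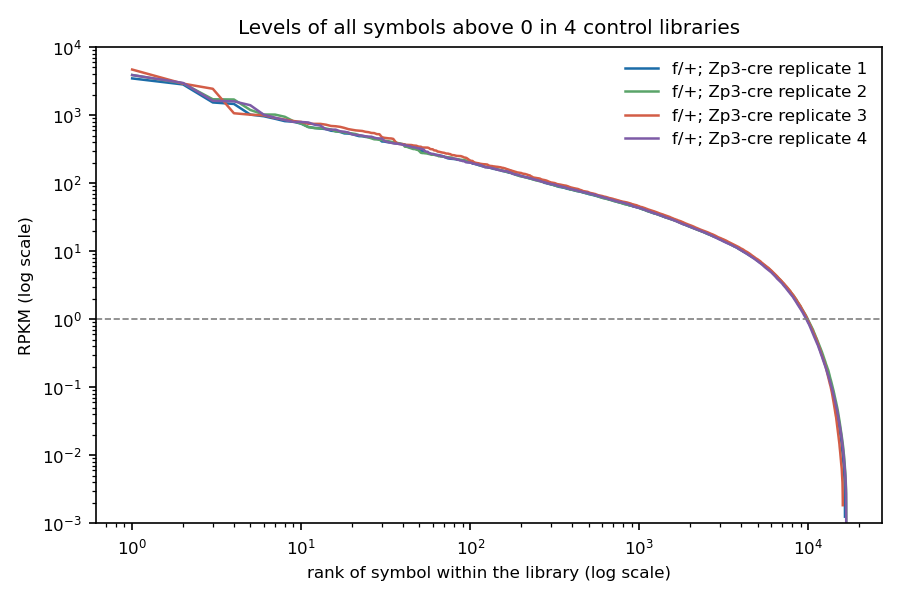
RPKM of each symbol above 0 (vertical axis, log scale) against its rank within the library (horizontal axis, log scale), 1 line per Setdb1 f/+; Zp3-cre library, with a dashed line at 1 RPKM. The 4 lines lie on each other over most ranks and cross 1 RPKM between rank 9716 and rank 9904, while at the left end the line of replicate 3 departs from the other 3.

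Much the same symbols were at the top in the 4 libraries. Of the 10 highest symbols by mean, 7 were among the 10 highest of each library, of the 40 highest 32 were, of the 100 highest 85 and of the 500 highest 430. Single libraries held 93 to 98 of the 100. The limit at rank 100 cuts through a continuous slope. Smc4, a condensin subunit, with 208 RPKM and Tet3, a dioxygenase that oxidises methylcytosine, with 202 RPKM were just inside it, and Pla2g4c with 201 and Adss with 199 RPKM just outside. Around rank 500 the slope was flatter still, from Eif5a and Dcaf8 inside at 70.9 and 70.8 RPKM to Psmc5 and Cenpn outside, both at 70.7 RPKM.

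Most of the highest symbols are annotated messenger RNAs. Of the 100 highest, 92 are protein coding and 6 are long noncoding RNAs in the RefSeq gene table, 2 are small or ribosomal RNAs, and 17 carry the provisional symbol of a predicted gene or clone. The 2 small or ribosomal RNAs were Rn45s, the precursor of ribosomal RNA, with 1456, 1707, 742 and 1622 RPKM, and Mir6236, annotated as a microRNA, with 961, 1188, 691 and 1394 RPKM. Both were lowest in replicate 3. The highest symbol of all is a predicted one, Gm15698, singled out here after its values were seen. It lies on the minus strand of chr11:88964658-88966931 (GRCm38) and is now named Elobl, elongin B like. It was at 3453, 3878, 4663 and 3870 RPKM, a mean of 3966 ± 505, and held 1.71% to 2.14% of the summed RPKM of a library. Its lowest library was above the highest library of every other symbol.

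Among established genes Zbed3 (chr13:95323605-95337842) came first with 2816, 2924, 2897 and 2964 RPKM. Zbed3 encodes a zinc finger protein that belongs to the subcortical maternal complex of oocytes. Its libraries differed by little, with a coefficient of variation, the SD as a share of the mean, of 2.14%. Gdf9 (chr11:53430774-53437904), the oocyte growth factor without which follicles stop growing, followed with 1531, 1693, 2432 and 1590 RPKM. Replicate 3 was the high one and the other 3 lay close together. Spin1, a reader of methylated histone H3 needed for meiotic resumption, had 1015, 1016, 817 and 1013 RPKM, with replicate 3 here the low one. The ranges of Zbed3 and Gdf9 over the libraries did not overlap, nor did those of Gdf9 and Spin1. The other 37 of the 39 pairs of neighbours among the 40 highest established genes overlapped in their ranges. Of these 37 pairs 3 stood in the same order in all 4 libraries, Ooep above Zfp57, Dppa3 above Ldhb and Nlrp14 above Bpgm, and the other 34 changed order in at least 1 library.

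**Figure D2:**
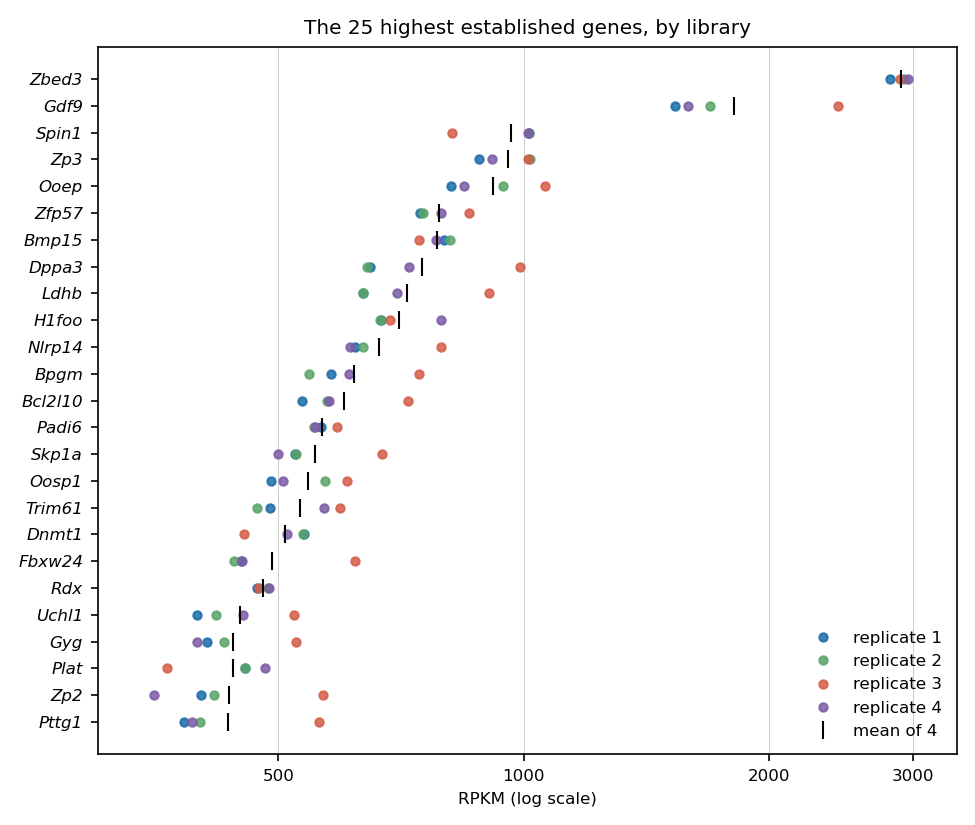
RPKM (horizontal axis, log scale) of the 25 highest established genes in each of the 4 libraries, as coloured points, with the mean as a black bar, ordered by mean. Zbed3 and Gdf9 stand clear of the rest, neighbours below Spin1 overlap, and replicate 3 is often the point farthest from the other 3.

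The sequences before the start sites of the highest genes ranged from CG-poor to CG-rich. Within the 250 bases before the start, the promoters of the 100 highest symbols held a median of 7 CG dinucleotides, those of the 500 highest 17, those from there down to 1 RPKM 16, and those below 1 RPKM 5. The very top thus had fewer CG than the broad class of expressed genes. These figures rest on 81 of the 100 and 410 of the 500 symbols with an entry in the RefSeq promoter table (GRCm38.p6). The oocyte-restricted families had a median of 2 CG, and 0% of their 26 promoters held 10 or more, against 83.3% for 78 promoters of ribosomal protein genes and 37.8% of all 32851 promoters. Of the 40 highest established genes 22 have a single entry there, with 1 to 29 CG. To show both ends of this range, 4 promoters of oocyte genes and 3 of broadly used genes are printed, each as the 250 bases before the start, 5′ to 3′ on the strand of the gene, with CG in capitals. They are Zp3 at chr5:135979855-135980104 (plus strand, 5 CG), Bmp15 at chrX:6320725-6320974 (minus strand, 2 CG), Padi6 at chr4:140742644-140742893 (minus strand, 1 CG) and Btg4 at chr9:51115751-51116000 (plus strand, 1 CG), then Skp1a at chr11:52231745-52231994 (plus strand, 24 CG), Sod1 at chr16:90220512-90220761 (plus strand, 26 CG) and Ywhae at chr11:75732637-75732886 (plus strand, 29 CG).
Zp3: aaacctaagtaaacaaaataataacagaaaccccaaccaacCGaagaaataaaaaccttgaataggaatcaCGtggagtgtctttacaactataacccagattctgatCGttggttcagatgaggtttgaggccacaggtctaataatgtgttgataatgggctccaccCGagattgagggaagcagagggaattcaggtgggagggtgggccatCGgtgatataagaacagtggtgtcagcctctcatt
Bmp15: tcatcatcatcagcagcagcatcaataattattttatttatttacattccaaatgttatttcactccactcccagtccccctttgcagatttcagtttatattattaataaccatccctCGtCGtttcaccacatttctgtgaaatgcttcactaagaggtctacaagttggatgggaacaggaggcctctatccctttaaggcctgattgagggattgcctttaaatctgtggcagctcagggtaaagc
Padi6: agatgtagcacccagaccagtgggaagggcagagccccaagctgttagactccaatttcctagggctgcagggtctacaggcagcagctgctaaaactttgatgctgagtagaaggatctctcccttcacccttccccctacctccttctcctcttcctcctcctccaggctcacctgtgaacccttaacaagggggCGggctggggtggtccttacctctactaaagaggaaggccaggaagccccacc
Btg4: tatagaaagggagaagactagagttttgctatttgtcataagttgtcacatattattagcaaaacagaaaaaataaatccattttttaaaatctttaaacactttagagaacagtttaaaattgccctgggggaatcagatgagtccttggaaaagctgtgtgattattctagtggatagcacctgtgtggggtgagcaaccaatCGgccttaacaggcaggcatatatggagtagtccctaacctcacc
Skp1a: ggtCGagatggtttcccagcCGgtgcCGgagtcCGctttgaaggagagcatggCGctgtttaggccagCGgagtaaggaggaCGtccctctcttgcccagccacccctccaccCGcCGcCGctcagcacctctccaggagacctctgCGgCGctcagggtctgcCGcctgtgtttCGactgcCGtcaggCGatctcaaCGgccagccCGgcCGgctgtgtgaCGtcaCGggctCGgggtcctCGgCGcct
Sod1: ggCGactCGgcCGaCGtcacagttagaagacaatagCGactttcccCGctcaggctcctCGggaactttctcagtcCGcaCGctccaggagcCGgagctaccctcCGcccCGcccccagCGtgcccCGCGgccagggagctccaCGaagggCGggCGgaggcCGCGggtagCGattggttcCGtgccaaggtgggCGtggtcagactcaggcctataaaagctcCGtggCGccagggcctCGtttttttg
Ywhae: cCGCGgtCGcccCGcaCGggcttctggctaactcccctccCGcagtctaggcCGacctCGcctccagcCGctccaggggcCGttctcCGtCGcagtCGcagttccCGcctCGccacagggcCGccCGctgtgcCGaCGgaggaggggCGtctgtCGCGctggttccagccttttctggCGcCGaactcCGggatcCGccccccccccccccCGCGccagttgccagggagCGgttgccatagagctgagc

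The 7 were taken from the ends of the range, with 1 to 5 CG in the 4 oocyte genes and 24 to 29 in the 3 others, and all ranked within the 43 highest symbols. Of the 22 promoters, 8 hold up to 5 CG, 10 hold 6 to 20 and 4 hold more, and the oocyte gene Ooep, with 11 CG, lies between the printed groups. Short motifs were searched on both strands of the same windows. The E-box CANNTG, which Figla and many other helix-loop-helix factors bind, was found in 74.0% of promoters of the 100 highest symbols, 60.5% of the 500 highest and 66.2% of all. The homeobox motif TAATTG, known for Nobox, was found in 12.5% of the 100 highest, 6.83% of the 500 highest, 7.32% below 1 RPKM and 7.17% of all. In the lists it was in 23.1% of 26 promoters of the oocyte-restricted families, 0% of 31 of the ubiquitin and F-box list and 2.56% of 78 of ribosomal protein genes. The lists are small, so these shares rest on few promoters. TAATTA was in 4.81% and 4.84%, TATAAA in 13.5% and 12.4%, and CCAAT in 41.4% and 33.9%, of the 100 highest and of all. Zp3 has 3 CANNTG matches, the farthest at 181 bases before the start with the letters CACGTG. A match is a description of letters and shows no binding. The printed windows of Btg4 and Skp1a lie inside the annotated spans of these genes, chr9:51102147-51119924 and chr11:52230522-52246858. Which start the oocytes use was not tested.

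The genes of the egg coat stood near the top. Of 7 genes of the zona pellucida and egg surface, 4 were among the 500 highest symbols, a place that 2.04% of all symbols and 5.07% of those of at least 1 RPKM hold, and their median was 120 RPKM. The lists were drawn up with earlier results of these data known, so their counts describe the oocyte and are no independent evidence. The coat is built of 3 glycoproteins in the list. Zp3 had 882, 1019, 1012 and 914 RPKM, Zp2, the sperm-binding glycoprotein, had 401, 417, 567 and 352 RPKM, and Zp1, which crosslinks the filaments, had 375, 389.5, 333 and 374 RPKM. Zp2 and Zp1 overlapped, and each was below Zp3 in every library. Astl, which encodes ovastacin, the cortical granule protease that cleaves ZP2 after fertilisation, had 111, 111, 146 and 110.5 RPKM. The sperm receptor Izumo1r (Juno) followed with 63.9 ± 7.61 RPKM. The fusion tetraspanin Cd9 was at 19.2 ± 2.07 RPKM and its relative Cd81 at 1.79 ± 0.551 RPKM.

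Genes for signals and contacts between the oocyte and its follicle also held high places. Of 8 such genes 5 were among the 500 highest, with a median of 200.2 RPKM. Next to Gdf9 stood Bmp15, its X-linked partner ligand, whose printed promoter holds 2 CG, with 799, 811, 744 and 779 RPKM. Gdf9 was above Bmp15 in all 4 libraries, by 1.92 to 3.27 times. Oosp1 and Oosp2, which encode oocyte-secreted proteins, had 543 ± 55.0 and 239 ± 33.0 RPKM. Gja4, the connexin 37 of the gap junctions with granulosa cells, had 162 ± 19.6 RPKM. The receptor gene Kit, which receives the granulosa signal KIT ligand, had 68.1 ± 1.89 RPKM and the ligand gene Bmp6 66.3 ± 6.91 RPKM. Fgf8, another oocyte factor, was at 12.8 ± 2.92 RPKM.

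The subcortical maternal complex, a protein assembly under the egg cortex that cleavage embryos need, was the list with the highest median, 236 RPKM, and all 8 of its genes were among the 500 highest. After Zbed3 came Ooep with 814, 943, 1063 and 844 RPKM. Padi6, needed for the cytoplasmic lattices that are held to store ribosomes and proteins, had 564, 553, 589.9 and 554 RPKM. The 4 libraries of Padi6 spanned 36.9 RPKM and those of Ooep 249 RPKM. Nlrp5 (Mater), the founding maternal effect gene of the group, had 277 ± 8.75 RPKM and Tle6 195 ± 12.4 RPKM. The Nlrp5 row used, 1 of 5, is a noncoding RefSeq entry. Nlrp2 had 122 ± 2.76, Nlrp4f 109 ± 4.98 and Khdc3 (Filia) 84.5 ± 11.9 RPKM. From Zbed3 to Khdc3 the genes of this assembly thus spanned levels from 2900 to 84.5 RPKM.

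The NLRP genes, relatives of inflammasome sensors that in mice are expressed in oocytes, overlapped with that complex. Of 11 listed genes 9 were among the 500 highest, with a median of 122 RPKM. Nlrp14 led with 621, 635, 792 and 611 RPKM, replicate 3 being the high library. Nlrp9b had 217 ± 23.5, Nlrp4a 139.9 ± 9.0 and Nlrp9a 136 ± 23.6 RPKM. Nlrp9c, Nlrp4a and Nlrp9a lie side by side at chr7:26364691-26574148.

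Genes of ubiquitin and its ligases, which mark proteins for breakdown, had 19 of 28 members among the 500 highest and a median of 114 RPKM. Skp1a (now Skp1), whose printed promoter holds 24 CG, encodes the adaptor that links F-box proteins to the cullin, and had 525, 526, 671 and 498.8 RPKM. The scaffold Cul1 had 211 ± 17.0 RPKM, and the RING subunit Rbx1 only 11.5 ± 3.59 RPKM. The F-box genes of the Fbxw family, which supply the substrate-binding subunit, were led by Fbxw24 with 449.8, 440.4, 621 and 452 RPKM and Fbxw19 with 289 ± 45.4 RPKM. In both, replicate 3 was high, and the other 3 libraries spanned 11.2 and 9.48 RPKM. The 10 Fbxw genes among the 500 highest, from Fbxw21 to Fbxw18, lie in a row at chr9:109139454-109702700, with means from 82.5 to 491 RPKM. The deubiquitinase gene Uchl1 had 397, 419, 523 and 453 RPKM. Its exons overlap those of Uchl1os on the opposite strand, and since the library kit does not mark strand the reads of the 2 genes cannot be told apart. Trim61, a tripartite motif gene, had 531 ± 60.9 RPKM and shares exon sequence on the same strand with Trim60, so its value may hold reads of that neighbour.

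Other genes of the upper end also lie in rows. Among 496 of the 500 highest symbols with a position, 48 fell into 12 runs of 3 or more lying at most 100000 bases apart, and among 498 of the next 500 symbols 12 fell into 4 such runs. Beside the Fbxw row there were 5 Tcl1 genes at chr12:105147019-105222737, 4 Oas1 genes at chr5:120786312-120921648, the 3 Oosp genes at chr19:11647284-11711858 and Omt2a, Omt2b and Ooep at chr9:78311972-78378588. Not all runs are gene families, since Zp3 lies with Ywhag, Dtx2 and Polr2j in a run of 4 at chr5:135908379-136122947.

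Oocyte-restricted multigene families, whose members are mostly of unknown function, ranged from high members to members listed at 0. Of 31 listed genes 18 were among the 500 highest, with a list median of 100.9 RPKM, while 6 were listed at 0 in all 4 libraries (Pramel6, Pramel7 and Tdpoz2 to Tdpoz5, named after their values were seen). Tdpoz2 to Tdpoz5 each have near-identical copies at 1 to 3 other loci, while Pramel6 and Pramel7 have no such copy. Bcl2l10, a BCL2 family member, had 534, 573, 722 and 577 RPKM. C86187, a noncoding RNA in the files, had 588, 614, 647 and 618 RPKM, and Rfpl4, a RING finger gene of the oocyte, had 417.5 ± 27.5 RPKM. Bcl2l10 was also by far the highest of 10 apoptosis regulators, whose median was 1.62 RPKM. Of the others, Bcl2l1 (BCL-X) had 23.8, Trp63, the guardian of oocyte quality, 19.8, Mcl1 3.93 and Bax 2.43 RPKM. Near-identical copies are frequent in these families. Of the 30 members with a transcript 13 have a copy at another locus, of at least 95% identity over at least 50% of the transcript. The members with such a copy had a median of 5.63 RPKM and the 17 without a copy 247 RPKM. No source used here states how reads with several matches were counted, and the part of this in the levels was not tested.

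The machinery that stores and later removes messages was another well-filled group, with 11 of 23 genes among the 500 highest and a median of 58.5 RPKM. Btg4, the adaptor that brings the deadenylase to maternal messages during maturation, had 382, 404, 365 and 418 RPKM, and its printed promoter holds 1 CG. Eif4e1b, an oocyte form of the cap-binding protein, had 305, 316, 267 and 316 RPKM. Both were lowest in replicate 3. Dcp1a, a decapping cofactor whose message is recruited during maturation, had 259 ± 23.5 RPKM, and Cpeb1, which binds the cytoplasmic polyadenylation element, 251 ± 9.37 RPKM. Zar1, an RNA-binding maternal effect gene, had 199, 200.5, 354 and 225 RPKM. Replicate 3 stood 129 RPKM above the next library of Zar1. The repressor partners Lsm14b and Eif4enif1 had 235 ± 19.97 and 172 ± 7.27 RPKM, and Ybx2 (MSY2), the germ cell Y-box protein that coats stored messages, had 45.5 ± 5.09 RPKM.

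Chromatin and DNA methylation factors included 6 of 16 genes among the 500 highest, with a median of 33.0 RPKM. Zfp57, the zinc finger protein that protects imprints, had 746, 751, 856 and 790.4 RPKM. Dppa3 (Stella), which shields maternal DNA methylation and keeps UHRF1 out of the oocyte nucleus, had 647, 642, 990.1 and 722 RPKM. Dnmt1 had 537, 536, 453 and 512 RPKM. Replicate 3 was thus the highest library for Dppa3 and Zfp57 and the lowest for Dnmt1. Npm2, a histone chaperone that organises the oocyte nucleus, had 262, 265, 332 and 337 RPKM, and its exons overlap those of Xpo7 on the same strand. Tet3, active in the zygote, had 218, 214, 160 and 216 RPKM, replicate 3 being the low library. Below these came Uhrf1 with 92.0 ± 4.92, Kdm1b, the H3K4 demethylase needed for maternal imprints, with 38.6 ± 0.705, Trim28 with 33.0 ± 5.61, Dnmt3l with 29.4 ± 10.2 and Dnmt3a, the de novo methyltransferase of the growing oocyte, with 21.6 ± 1.61 RPKM. The H3K9 methyltransferase gene Ehmt2 (G9a) was at 0.183 ± 0.109 RPKM, below Setdb1 in every library.

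Among linker histones, variants and their chaperones, 5 of 15 genes were among the 500 highest and the median was 17.2 RPKM. H1foo (now H1f8), the linker histone of oocytes, had 668, 666, 684 and 792 RPKM, with replicate 4 the high library. Nasp, a histone H3 chaperone, had 144 ± 18.9 RPKM, Hist1h2aa 107 ± 6.36, H2afx 88.7 ± 4.17 and Asf1a 75.5 ± 4.35 RPKM. Of the genes for the replacement histone H3.3, H3f3b was at 28.8 ± 2.10 and H3f3a at 8.0 ± 1.07 RPKM. H1foo was at 5.84 times the next listed histone gene or more in each library.

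Transcription factors of the oocyte covered a wide range of levels. Of 15 genes 6 were among the 500 highest, with a median of 19.3 RPKM. The homeobox gene Obox2 had 263, 261, 343 and 258 RPKM, replicate 3 being high, and Obox5 had 209 ± 27.9 RPKM. At least 50% of the Obox2 transcript matches Obox5 at 95% identity or more, so the split between them is uncertain. The Obox5 transcript had no such match over that share of its own length. The exons of Obox2 also overlap those of Obox1 on the same strand. Nobox had 187, 213, 178 and 197 RPKM, Sall4 136 ± 5.12, Foxo3, the brake on follicle activation, 113 ± 11.2 and Lhx8 67.5 ± 2.91 RPKM. Figla, the helix-loop-helix factor that turns on the zona genes in early follicles, was at 9.66 ± 1.59 RPKM, and Sohlh1, a factor of primordial follicles, was at 0.0131 RPKM and listed at 0 in 2 of 4 libraries.

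Regulators of meiotic arrest and resumption were present at moderate levels. Of 28 genes of CDK1 control 4 were among the 500 highest, with a median of 22.6 RPKM. Bub1b (BubR1), the checkpoint kinase relative, had 342, 343, 314 and 373 RPKM. Wee2, the oocyte kinase that keeps CDK1 inactive, had 192 ± 6.64 and Mos, the kinase upstream of MAP kinase in eggs, 98.3 ± 8.13 RPKM. Plk1 had 71.1 ± 4.95 and Ccnb1, cyclin B1, 43.5 ± 1.35 RPKM, while Cdk1 itself had 13.9 ± 1.74 and its activator Cdc25b 9.38 ± 1.0 RPKM. Among 14 genes of cAMP signalling, which holds the arrest, Rgs2 led with 183, 187, 289.6 and 200.2 RPKM, replicate 3 being high. Gnas, the stimulatory G protein, had 104 ± 3.16, the phosphodiesterase gene Pde3a, the target of milrinone, 46.5 ± 6.58 and the receptor gene Gpr3 40.05 ± 3.38 RPKM. The Gnas row used, 1 of 11, is a noncoding RefSeq entry.

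For spindle and cohesion 6 of 26 genes were among the 500 highest, with a median of 27.2 RPKM. Pttg1, securin, led with 383, 401, 560.4 and 391.5 RPKM. Its value depends on the transcript row, since the longer of its 2 rows had a mean of 193 RPKM against 434 for the row used. Tacc3 had 228, 222, 300.1 and 230.4 RPKM, again with replicate 3 high, and Tubb4b 108 ± 23.5 RPKM. Calcium signalling, used at fertilisation, had 3 of 10 genes among the 500 highest, among them Calm2 with 148 ± 3.68 and Atp2a2, the pump that refills the stores, with 117 ± 3.0 RPKM. The kinase gene Camk2g had 57.5 ± 2.45 and Itpr1, the release channel, 17.5 ± 1.20 RPKM. The actin cortex had 2 of 24 genes there, Pfn1 with 107 ± 23.2 and Cfl1 with 80.9 ± 7.88 RPKM. That share is 8.33%, beside 2.04% of all symbols and 5.07% of those of at least 1 RPKM.

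Energy metabolism was led by a single gene. Ldhb, a lactate dehydrogenase subunit, had 634, 636, 906.5 and 699 RPKM, and the next of the 19 genes, Cs (citrate synthase), had 86.1 ± 4.07 RPKM. Ldhb is also 1 of 10 among the 98 highest symbols with a transcript that have a near-identical copy. Its partner gene Ldha was at 0.267 ± 0.210 RPKM, Pgk1 at 0.602 ± 0.0878 and Gapdh at 0.228 ± 0.0867 RPKM. Gapdh has near-identical copies at 71 other loci in GENCODE M21, Pgk1 at 2 and Ldha at 1. The 8 genes of this list with a copy had a median of 6.35 RPKM and the 11 without a copy 16.1 RPKM. Bpgm, the bisphosphoglycerate mutase known from red cells, had 579.5, 545, 743 and 611 RPKM and ranked 15. Gyg, glycogenin, had 439.9 ± 58.1 RPKM.

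Cytosolic ribosomal protein genes were mostly detected but seldom among the highest. Of 87 genes 63 (72.4%) reached 1 RPKM, beside 40.3% of all symbols, and 2 were among the 500 highest, a share of 2.30% that is close to the 2.04% of all symbols. Rpl4, the higher of the 2, had 92.3 ± 6.14 RPKM. The median was 3.52 RPKM over the whole list, beside 0.282 RPKM over all symbols, and 7.12 RPKM over the 63, beside 7.56 RPKM over all symbols of at least 1 RPKM. The 57 with a near-identical copy had a median of 2.79 RPKM, and the 29 without a copy 5.67 RPKM. Some other genes used in every cell had levels below 1 RPKM, such as Actg1 with 0.270, Gpx4 with 0.202 and Ppia with 0.0549 RPKM, while Actb had 22.7 RPKM. Actg1 has copies at 5 other loci, Gpx4 at 2 and Ppia at 1, whereas Actb has no such copy. Over the whole actin list the 5 genes with a copy had a median of 0.948 RPKM and the 19 without 27.5 RPKM. Below 1 RPKM were 3 of the 8 energy genes with a copy and 0 of the 11 without. In the ribosomal list these counts were 19 of 57 and 5 of 29, and in the actin list 3 of 5 and 1 of 19. In the energy, ribosomal and actin lists the median was thus lower with a copy, but some genes without a copy were low as well. The part of the counting of such reads was not tested. In the translation factor list the order was the other way, with 16.6 RPKM for 7 genes with a copy and 15.6 RPKM for 10 without, and of 494 of the 500 highest symbols the 28 with a copy had a median of 128 RPKM and the 466 without 111 RPKM.

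The medians of the other housekeeping groups lay above that of the ribosomal protein genes. Nuclear-encoded respiratory chain genes had 6 of 92 members among the 500 highest and a median of 14.1 RPKM. Their share of 6.52% stood beside 2.04% of all symbols and is close to the 5.07% of those of at least 1 RPKM. The 2 highest were Cox6a1 with 112, 117, 190 and 111 RPKM and Atp5b with 131, 146, 89.4 and 145 RPKM. Their order turns on replicate 3, since without it Atp5b had a mean of 141 and Cox6a1 of 113 RPKM. Proteasome genes had 4 of 39 (10.3%) and a median of 18.4 RPKM, led by Psma7 with 126 ± 16.7 RPKM. Chaperones and redox enzymes had 7 of 23 (30.4%) and a median of 27.6 RPKM. In that list Sod1, superoxide dismutase, stood out with 332, 323, 446 and 334 RPKM. Translation factors had 1 of 17, Eif5a, a share of 5.88% that is also close to 5.07%, and a median of 16.4 RPKM.

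Genes of earlier and later stages were mostly below 1 RPKM. None of 13 genes of early meiotic prophase was among the 500 highest. Only 2.04% of all symbols hold such a place, so this count says little for a list of 13. Their median was 0.993 RPKM, beside 0.282 RPKM over all symbols and 7.56 RPKM over those of at least 1 RPKM. Sycp3, of the synaptonemal complex, had 11.8 ± 2.83 RPKM, and Stra8 and Spo11, which act at meiotic entry and make the breaks for recombination, were listed at 0. Of 11 genes typical of the 2-cell embryo, 2 reached 1 RPKM, Tcstv1 with 23.0 ± 6.66 and Tcstv3 with 3.41, 1.85, 13.6 and 3.75 RPKM, and the list median was 0.0320 RPKM. Of these 11 genes 8 have a near-identical copy, with a median of 0.0710 RPKM against 0.0126 for the 3 without, and the part of the counting of such reads was not tested.

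**Figure D3:**
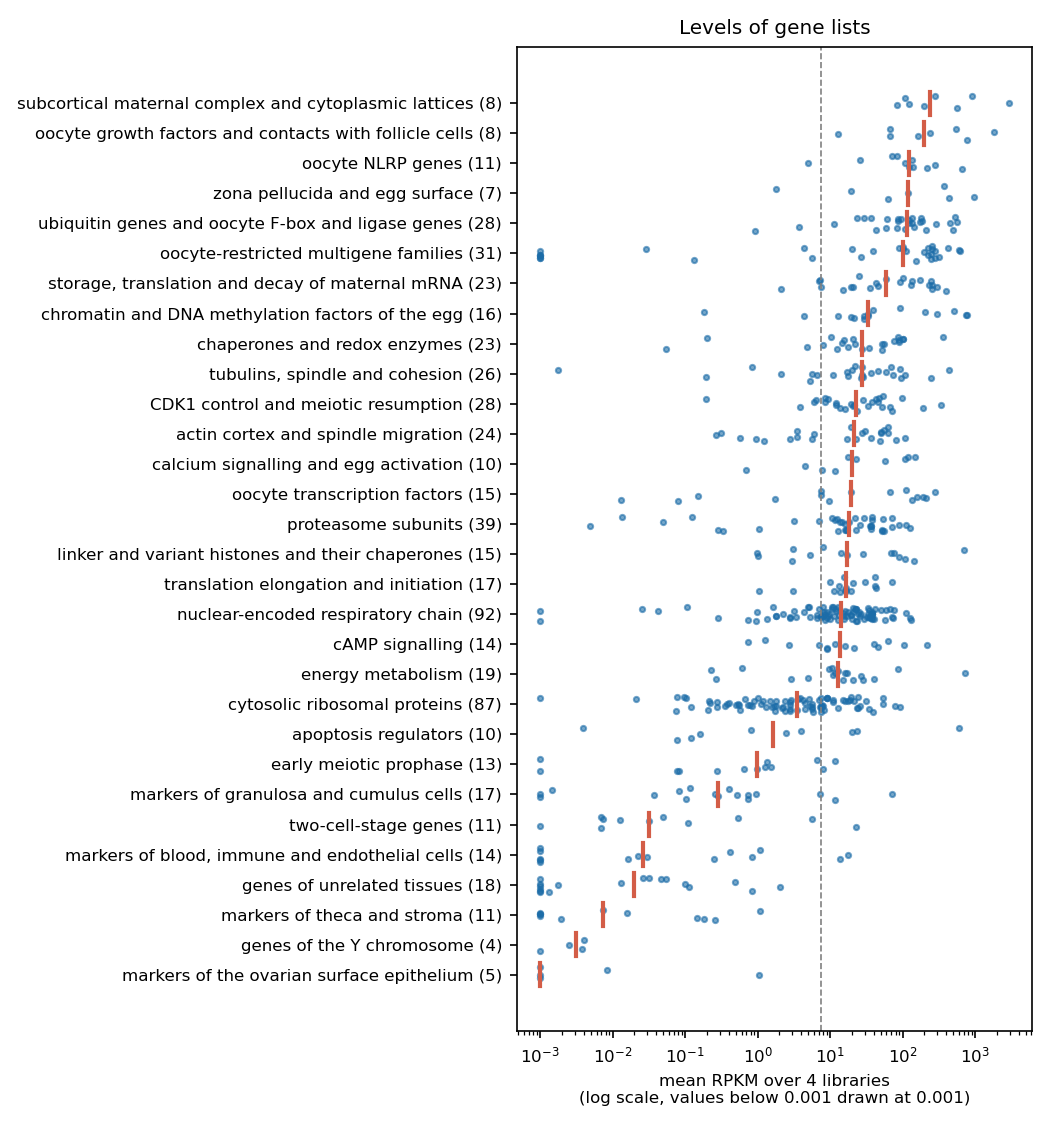
Mean RPKM over the 4 libraries (horizontal axis, log scale) of each gene, as a point, in 30 gene lists, with the number of genes in parentheses, the median of each list as a red bar and the median of all symbols of at least 1 RPKM, 7.56, as a dashed line. The maternal complex, the growth factors, the NLRP genes and the zona genes have the highest medians, the median of the ribosomal proteins, with members below 1 RPKM included, lies left of the dashed line, and the markers of other cell types lie mostly below 1 RPKM.

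The lists cover only a part of the upper end. Of the 100 highest symbols 51 are in a list, and of the 500 highest 128. Genes outside the lists with high levels were Rdx, radixin, which ties actin to the membrane, with 471, 485, 473 and 487 RPKM, Plat, tissue plasminogen activator, whose message is known to lie dormant until maturation, with 455, 455, 365 and 482 RPKM, and Mdm4, a regulator of p53, with 428 ± 32.2 RPKM. The 14-3-3 gene Ywhae had 328, 317, 454 and 324 RPKM. Accsl had 368 ± 17.9, Mtus1, a microtubule-associated gene, 325 ± 24.7 and Mphosph6 321 ± 34.1 RPKM. Mtus1 and the noncoding Arhgap20os, with 325 ± 9.04 RPKM, are 2 of 16 among the 98 highest symbols with a transcript whose exons overlap another gene on the opposite strand.

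The X chromosome, from which oocytes read both copies, held 310 symbols of at least 1 RPKM. Their median was 5.62 RPKM, against 7.63 for 9527 symbols on the autosomes. The X median was below the autosomal one in each library, with 5.59, 5.40, 5.77 and 5.36 against 7.54, 7.56, 7.81 and 7.38 RPKM. Of the X-linked symbols 13 (4.19%) were among the 500 highest, against 5.08% of the autosomal ones, and Bmp15 was among them. Chromosomes 6 and 9 had the largest shares, 7.35% and 6.97%, chromosome 9 with the Fbxw row.

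Levels at the top repeated well between mice. The median coefficient of variation was 8.26% for the 500 highest symbols and 13.6% for all of at least 1 RPKM. Without replicate 3 the former was 4.43%. The 6 genes of the narrowest spread among the 500 highest were Pacsin2, Cirh1a (now Utp4), G3bp2, Ezh2, Ski and Lsm14a. G3bp2, a stress granule protein gene, had 244, 242, 249 and 247 RPKM, and Ezh2, the H3K27 methyltransferase, had 118, 118, 118 and 121 RPKM.

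The 6 of the widest spread were Mt1, Slc39a6, Atp5e, Pak1, Cox17 and Atp5k. Mt1, metallothionein, had 116, 124, 176 and 10.4 RPKM, so that replicate 4 was the low one, while its level in the other libraries was 11.1 times that or more. Slc39a6, a zinc importer, had 81.1, 79.1, 165 and 73.9 RPKM, and Pak1, a kinase, had 69.4, 70.0, 146 and 95.8 RPKM. For both, replicate 3 was the high one. The same held for the small mitochondrial genes, such as Atp5e with 86.3, 91.4, 174 and 88.1 RPKM and Cox17 with 62.8, 65.6, 116 and 59.4 RPKM.

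**Figure D4:**
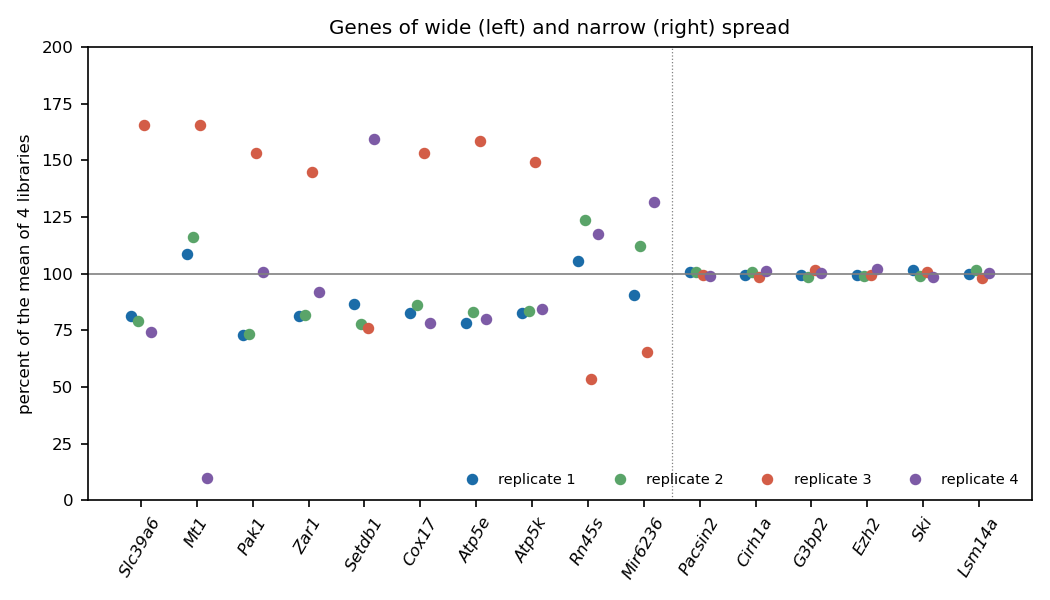
Level in each library as a percentage of the mean of the 4 (vertical axis) for genes of wide spread on the left of the dotted line and the 6 of narrowest spread on the right, 1 colour per library. Replicate 3 is high for Slc39a6, Pak1, Zar1, Cox17, Atp5e and Atp5k and low for Rn45s and Mir6236, while replicate 4 is low for Mt1 and high for Setdb1.

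Replicate 3 differed from the others along transcript length. By the gap between its value and the nearest library, 67 of the 500 highest symbols had replicate 3 far from the other 3, of 76 symbols (15.2%) with any such library, beside 8.12% of all symbols of at least 1 RPKM. For each symbol of at least 1 RPKM the deviation of log2(RPKM + 0.5) from the mean of the 4 libraries was taken. In replicate 3 its median was 0.21 for transcripts up to 500 bases and 0.21 from 500 to 1000 bases, 0.11 from 1000 to 2000, 0.03 from 2000 to 4000, -0.04 from 4000 to 8000 and -0.03 above. The 4 deviations of a symbol add up to 0, so the other 3 libraries must run the opposite way, and their medians lay from -0.09 to 0.03. Of all 500 highest symbols, whatever their length, 260 were highest in replicate 3 and 153 were lowest there. Of 69 transcripts up to 1000 bases among the 500 highest, 48 were highest in replicate 3, such as Dppa3, Pttg1, Sod1 and Atp5e, and 12 were lowest there, such as Eif4e1b. Of 99 transcripts over 4000 bases, 52 were lowest in replicate 3, such as Dnmt1, Spin1 and Tet3, and 24 were highest there, such as Smc4. Replicate 3 also had the lowest Rn45s. The part of transcript length in the values of single genes was not tested.

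**Figure D5:**
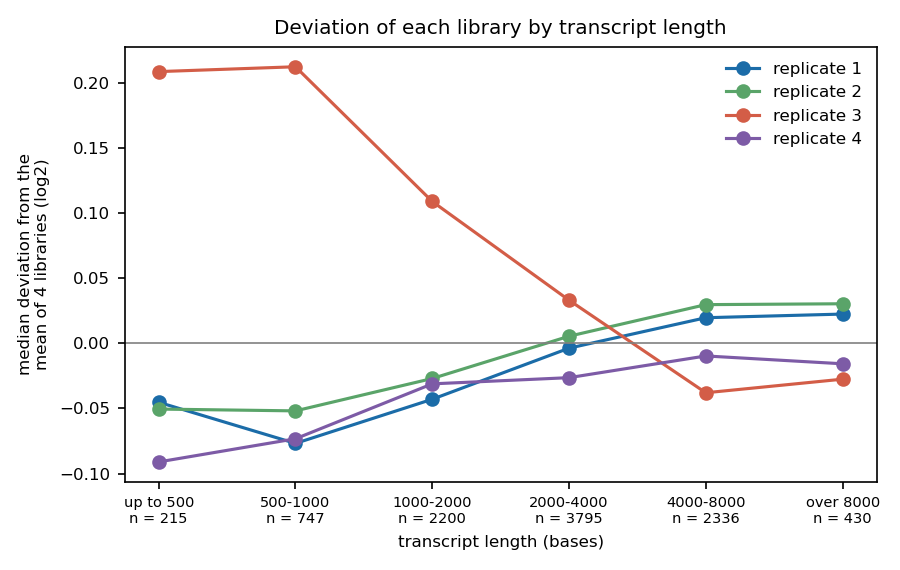
Median deviation of each library from the mean of the 4 on the log2 scale (vertical axis) in 6 classes of transcript length (horizontal axis, bases), with the number of symbols per class. Replicate 3 falls from 0.21 for the shortest transcripts to -0.03 for the longest, and the other 3 libraries stay between -0.09 and 0.03.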

How the data were processed

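The deposited table gives RPKM for 34768 RefSeq transcripts in 10 libraries, of which the 4 Setdb1 f/+; Zp3-cre columns were used. Per the labels' protocols, cDNA was amplified from 1.2 ng of RNA per pool by single-primer isothermal amplification and 50 ng of it entered a TruSeq DNA library, which does not mark strand. Amplification can shift levels with transcript length and adds spread. The tools bcl2fastq 1.8.3 and STAR and the build mm10 are listed in the submitters' processing notes, without their settings. How reads were counted, and whether those with several matches entered, is not given in the sources used.

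For each of the 24453 symbols the row with the highest mean stood for the gene. Python 3.11.15, pandas 2.3.3 and numpy 2.4.6 were used. Of the 500 highest symbols 160 have several rows, and in 23 of these the lowest row is under 2/3 of the highest. Positions and transcripts came from GENCODE M21 and the RefSeq gene table (GRCm38), which matched 99.7% of symbols by gene ID and gave a length for 97.7% of rows. Copies were sought with megablast among GENCODE transcripts. Promoters came from the RefSeq table.

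Read totals of 56.5e6 to 69.0e6 were estimated from the spacing of 3000 low values per library, of which 68.5% to 70.5% lay within 0.1 of a whole number of reads, so the totals are approximate. Amplified reads are not independent molecules. No 2 libraries shared an identical value above 0 among the 9854 symbols of at least 1 RPKM, and each came from another mouse.

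No test was run, because the ranking is made from the values. Members and the 30 gene lists were chosen with earlier results of these data known. The rule for named genes was Setdb1, 4 markers, the 40 highest symbols that are not small RNAs or predicted genes, up to 5 highest members of each list, all members of at least 1 RPKM in lists of other cell types and stages, the 6 widest and 6 narrowest spreads among the 500 highest, and the 2 symbols on each side of rank 100 and rank 500. Other genes named, such as Gapdh, Khdc3 or Figla, and values at 0 were chosen after their values were seen. Only the gap ratio, the ranking of the 100 highest and the SD were tried on simulated libraries. Their noise was independent and of equal spread for all genes and libraries. They held no shift along transcript length like that of replicate 3, so they do not cover it. A few genes are not reported here by name and stay in the counts and medians.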

Additional observations from a re-analysis of the deposited data

Results flagged for a closer look

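Of 196 named genes of at least 1 RPKM, 32 (16.3%) had a library that lay far from the other 3, with a gap to the nearest library above the 95% critical value of Dixon's test for 4 values, taken as a share of the whole range. Chance flags about 1 in 20 genes. Among all 9854 symbols of at least 1 RPKM the share was 8.12%, and among the 500 highest it was 15.2%, 76 symbols.

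Replicate 3 was the library apart in 67 of those 76, as the highest in 52 and the lowest in 15, and in 551 of 800 among all symbols of at least 1 RPKM. Named genes that were highest in replicate 3, with the gap as a share of the range, were the egg protease gene Astl (0.983), the respiratory chain genes Atp5k (0.970), Atp5e (0.943), Cox6a1 (0.932) and Cox17 (0.891), the ubiquitin ligase genes Fbxw24 (0.938), Rbx1 (0.908), Fbxw19 (0.902) and Skp1a (0.843), the homeobox genes Obox2 (0.935) and Obox5 (0.849), the zinc importer gene Slc39a6 (0.921), the condensin gene Smc4 (0.920), Ywhae (0.918), Sod1 (0.905), the securin gene Pttg1 (0.90), Tacc3 (0.891), the ribosomal protein genes Rpl39 (0.887) and Rplp1 (0.857), Nlrp14 (0.872), Nlrp9a (0.847), Aurka (0.855), Tcstv3 (0.838), Rgs2 (0.836) and Zar1 (0.830). Spin1 (0.984) and Tet3 (0.931) were lowest in replicate 3.

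Replicate 4 was highest for Setdb1 (0.873), Ezh2 (0.872) and H1foo (0.854), and for Ezh2 the whole range was 118 to 121 RPKM. Replicate 2 was highest for Msh4 (0.913) and Ccnb1 (0.902).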

How the results depend on the processing

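No paired analysis was possible because the results come from 1 group of mice and from no test. The count of symbols of at least 1 RPKM was 9854 and ranged from 9806 to 9882 when 1 library was left out. The share of summed RPKM in the 100 highest symbols, 22.48%, was 22.28% to 22.68% without 1 library, 26.03% with the rows of a symbol summed, 21.82% without small RNA symbols, and, by construction, 16.5% for the 50 highest and 30.22% for the 200 highest. The choice of mean, median or lowest library cannot move this share, which is computed per library. Of the 100 highest symbols 96 to 99 stayed without 1 library, and 59 with rows summed, which counts reads shared by transcripts several times. Of the 640 genes in lists, 128 were among the 500 highest (124 to 129 without 1 library) and 81 among the 250 highest. The median coefficient of variation of the 500 highest, 8.259%, was 4.43% to 9.334% without 1 library, lowest without replicate 3. Of 2847 levels of 204 named genes under the alternatives, 389 moved by 1 SD or more, among them all 204 under scaling of each library to a fixed sum, which changes the unit. Depth is approximate and limits levels near 0.1 RPKM.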
